A study of Homo sapiens with 4 samples.

Results

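The apolipoprotein L (APOL) family comprises the genes APOL1 to APOL6, all 6 of which are on the array, out of 27193 gene or transcript names. The members were taken by gene name among the spots that are not controls, which gave 9 probes of 1 spot each out of 34127 probes: 1 each for APOL1, APOL2, APOL3 and APOL5, 2 for APOL4 and 3 for APOL6. The comparison was between 2 samples of MCF10A.B2 control cells and 2 samples of MCF10A.B2 cells that express a shRNA against PAK1 (PAK1 shRNA). MCF10A.B2 is a line of the MCF10A human mammary epithelium that carries a chimeric Her2 (ErbB2) receptor, which the dimerizer AP1510 switches on. The cells of both groups were grown with 5% horse serum, serum starved for 3 h and given AP1510 for 15 min. The design text calls the shRNA Tet inducible and stably expressed and speaks of tumor derived cells, while the sample labels name the cell line and give the control group only as control or Pak1 wild type. The study's methods describe wild type cells of this line beside cells with the inducible shRNA. An effect of the shRNA itself and one of PAK1 loss cannot be told apart, because no arrays of a non-targeting shRNA were analysed here. The same holds for exposure to the inducer and for the making of a separate stable line, if the groups differed in these.

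APOL proteins are lipid-binding proteins of the cell interior that share membrane-inserting domains and bear no sequence kinship to the classical apolipoproteins of blood. APOL1 is the member with a signal peptide. It is secreted into blood on a high-density lipoprotein particle together with haptoglobin-related protein, where it lyses African trypanosomes by forming ion channels, and it is also known for its role in kidney disease. APOL3 is known to disrupt the membranes of bacteria in the cytosol of interferon-treated cells, APOL2 and APOL6 are intracellular and have been linked to cell death, and several members are known interferon-induced genes. Little is known about APOL4 and APOL5. The family lies in 1 cluster on chromosome 22q12, where it arose by gene duplication.

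Since duplicated genes can share sequence, the probes were compared first. Among the pairs of probes from different APOL genes, those of APOL1 and APOL2 were the most alike, and 27 of 32 aligned bases matched. The stretches below are the 30 bases of each that match best, at chr22:36663118-36663147 on the plus strand for APOL1 and chr22:36622679-36622708 on the minus strand for APOL2 (hg19, 5′ to 3′), and the 5 capitals mark the bases at which they differ.
APOL1: aggttCAatgtcctCcGaagaatGaagtct
APOL2: aggttTGatgtcctTcCaagaatAaagtct
The longest run of bases common to both 60-base probes was 8. No other pair of probes from different APOL genes had an aligned stretch of more than 15 bases. Whether APOL1 and APOL2 transcripts bind each other's probe was not tested, so their values are not treated as independent.

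APOL4 and APOL6 had several probes, whose sequences are given because the probes of each gene did not give the same fold change. The second APOL4 probe, at chr22:36587123-36587182 on the minus strand, is shown whole. It holds 1 reading frame whose first stop codon is its last 3 bases, in capitals. The first 30 bases of the first APOL4 probe, at chr22:36585913-36585942 on the minus strand, follow it.
APOL4 second probe: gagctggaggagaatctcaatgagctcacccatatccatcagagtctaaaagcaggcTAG
APOL4 first probe: taaagtttatggaactcagtgttaggaact
Of APOL6, the first probe lies at chr22:36055129-36055188, the second at chr22:36057118-36057177 and the third at chr22:36063762-36063821, all on the plus strand. The first is shown whole, the second by the 30 bases at chr22:36057138-36057167 and the third by those at chr22:36063762-36063791. In the second, capitals mark arms of 8 bases that are reverse complements of each other, and 2.1% of the 34127 array probes hold arms at least that long.
APOL6 first probe: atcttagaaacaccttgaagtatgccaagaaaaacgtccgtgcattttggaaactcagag
APOL6 second probe: gccttATTACACTgataaAGTGTAATtaca
APOL6, the third probe: tgcttttaacttccccaccatgttgcacct
The remaining members have 1 probe each. The APOL3 probe lies at chr22:36536936-36536995 on the minus strand and the APOL5 probe at chr22:36125425-36125484 on the plus strand. The GC content of the 9 probes ranged from 35% to 53.3%. Which probes lie in coding exons and which in untranslated exons was not established, as no annotation of hg19 was used here.

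Each array held 43118 spots other than controls, and 78.9% to 83.2% of probes were well above background by the scanner software. All 9 APOL spots were free of outlier and saturation flags on the 4 arrays. PAK1, the target of the shRNA, had normalized log2 intensities of 11.19 and 11.27 in control cells and 10.44 and 10.52 in PAK1 shRNA cells, or 59.5% of the control level (log2 fold change -0.75 with a standard error, SE, of 0.08, and a Benjamini-Hochberg adjusted p = 0.000182 in limma). All 8 basal mammary epithelial markers were well above background on all arrays, and in PAK1 shRNA cells 5 of them were lower and 2 higher, with summed intensities of 376200 to 418100 in control cells and 331000 to 342100 in PAK1 shRNA cells. Of the 6 luminal markers, KRT18 was the 1 called higher, and 2, KRT19 and GATA3, were lower, with a median log2 fold change of -0.08. Their intensities, of which KRT18 had the highest, summed to 185700 to 192000 in control cells and 231600 to 256500 in PAK1 shRNA cells. The 4 leukocyte markers, with CD14 as the 1 called higher, summed to intensities of 18640 to 19470 in control cells and 45210 to 48940 in PAK1 shRNA cells, while PTPRC, which defines leukocytes, had log2 intensities of 7.65 and 7.79 against 7.85 and 7.84. The 4 endothelial markers summed to 1049 to 1088 in control cells and 851.9 to 879.5 in PAK1 shRNA cells, with PECAM1 lower (-1.56) and VWF higher (0.37 on the log2 scale). The fibroblast markers summed to 3875 to 4622 in control cells and 7486 to 7732 in PAK1 shRNA cells. COL1A1 and DCN were higher and PDGFRB lower, but PDGFRB was well above background on only 1 PAK1 shRNA array and was tested through control cells. All 3 hepatocyte markers tested were higher, but APOA2 was well above background on only 1 control array and was tested through PAK1 shRNA cells. The list, with SERPINA1 the brightest, summed to 15860 to 19500 in control cells and 23620 to 25960 in PAK1 shRNA cells. Of all genes tested, 31.0% were called higher and 31.9% lower, so the marker calls are to be read against these shares. The part of these markers in the results below was not tested. The labels do not say that the samples of a group came from separate cultures, so p-values measure only the spread between these samples, which may be technical.

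Of the 6 APOL genes, 5 were higher in PAK1 shRNA cells at an adjusted p under 0.05 and none was lower. The threshold called 31.0% of the 22001 genes tested higher and 31.9% lower, so the count is to be read against these shares. The APOL genes had a median log2 fold change of 3.43, against 0.02 for all genes, and 8.85% of all genes were called higher by more than 2-fold. Both PAK1 shRNA arrays lay above both control arrays for the same 5 genes, as they did for 42.1% of all genes, while 39.7% of all genes had both below. An exact two-sided permutation test of 1 gene cannot go below 0.333 with 2 arrays against 2, so the tests below rest on limma's spread across all genes.

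**Figure D1:**
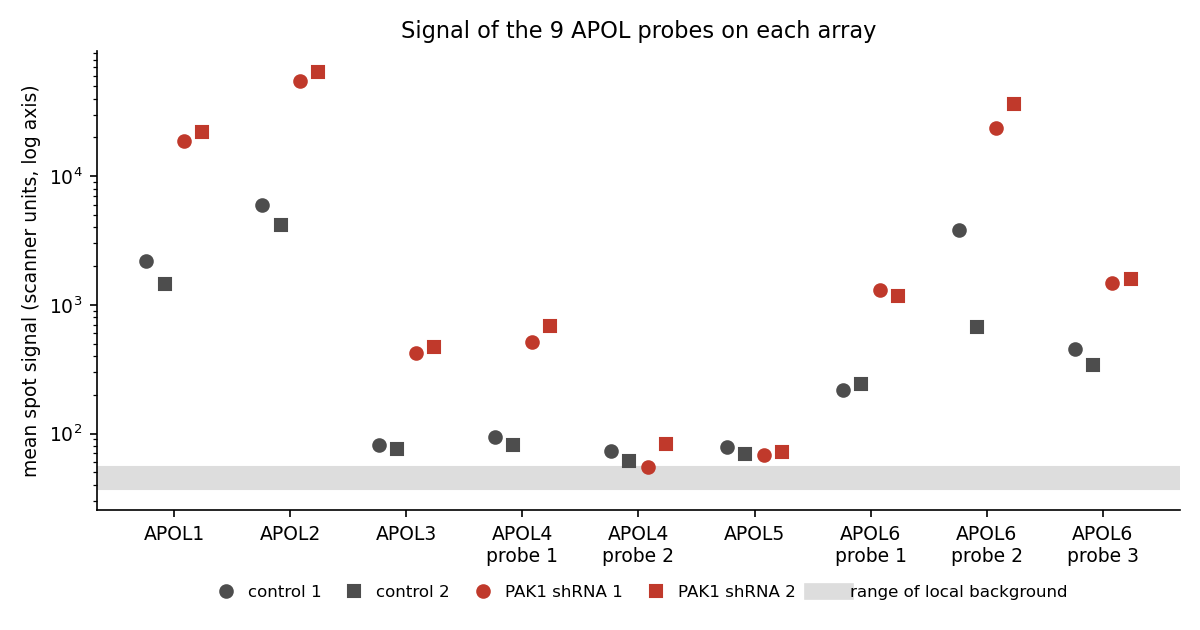
Mean spot signal of each APOL probe (log axis, scanner units before normalization) on the 2 control arrays (grey) and the 2 PAK1 shRNA arrays (red); probes of a gene are numbered by position, and the band is the range of the local background of these spots. For 7 of the 9 probes both PAK1 shRNA arrays lie above both control arrays, while APOL5 and the second APOL4 probe lie near the background on all 4 arrays. After normalization 42.1% of all genes had both PAK1 shRNA arrays above both control arrays. The share of all probes before normalization was not counted.

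APOL1, the secreted trypanosome lytic factor, rose 16.2-fold. Its mean spot signal was 2175 and 1449 scanner units in control cells against 18800 and 22150 in PAK1 shRNA cells. After normalization the log2 intensities were 10.65 and 10.42 in control cells and 14.44 and 14.68 in PAK1 shRNA cells. The groups were far apart, as arrays of a group differed by no more than 1.18-fold. On the log2 scale APOL1 rose by 4.02 (SE 0.12, limma's Benjamini-Hochberg adjusted p = 1.11e-06), with a 95% confidence interval of 13.4 to 19.7 for the fold.

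APOL2, its intracellular neighbour in the cluster, rose by nearly the same factor, 16.5-fold. The spot signal was 5976 and 4155 in control cells against 54530 and 64790 in PAK1 shRNA cells. The normalized log2 intensities were 12.12 and 11.93 against 15.96 and 16.18, a rise of 4.04 on the log2 scale (SE 0.11, adjusted p = 8.91e-07 from limma). The confidence interval of the fold, 13.7 to 19.7, covered nearly the same range as that of APOL1. Of the 20692 genes that were well above background and unsaturated on all 4 arrays, APOL2 had the pattern nearest to APOL1, at a distance of 0.0396 on the log2 scale over the 4 arrays, each gene being centred on its control mean. The next nearest to APOL1 were CGN, the gene of the tight junction protein cingulin, at 0.114 and LOC390940 at 0.163. CGN and LOC390940 also followed APOL1 among the genes nearest to APOL2. The likeness of APOL1 and APOL2 stands beside the shared stretch of their probes shown above.

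APOL3, the member that acts on bacterial membranes, was dim in control cells and rose. Its spot signal was 81.29 and 75.73 on the control arrays, over local backgrounds of 49 and 45, against 418.9 and 470.3 in PAK1 shRNA cells. It was called well above background on all 4 arrays, although the control signals were close to it. The normalized log2 intensities were 6.41 and 6.55 against 8.98 and 9.18, which is a 6.07-fold difference (log2 fold change 2.60, SE 0.10, adjusted p = 3.02e-06 from limma). GPR141, ZC3HAV1 and ENST00000455622 had the nearest patterns, at distances of 0.0629, 0.0761 and 0.0856. ZC3HAV1 encodes the zinc finger antiviral protein.

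APOL4 rose at 1 of its 2 probes. At the first probe the spot signal was 94.4 and 81.49 in control cells against 513.8 and 686.2 in PAK1 shRNA cells, and the normalized log2 intensities were 6.64 and 6.71 against 9.28 and 9.72. The fold was 7.11 (log2 fold change 2.83, SE 0.14, adjusted p = 8.93e-06 from limma), and the groups did not overlap. At the second probe the signal was 73.15 and 61.58 in control cells and 55.34 and 82.52 in PAK1 shRNA cells. These values overlap, and the second probe was well above background on 1 control and 1 PAK1 shRNA array, so it was not tested. The patterns nearest to the first probe were those of PDGFRL, SLC8A2 and KCNMB4, at distances of 0.0872 to 0.107.

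Another probe of the array is annotated to APOL4 in its description but carries the transcript name ENST00000328429 in place of the gene name, so it lies outside the family as defined here. It was picked out after its values were seen. It lies at chr22:36593689-36593748 on the minus strand, between the APOL4 and APOL2 probes. Its signal was 201 and 162.2 in control cells and 448.3 and 482.6 in PAK1 shRNA cells, a 3.19-fold difference after normalization (log2 fold change 1.67, SE 0.08, adjusted p = 6.84e-06 from limma). The 3 APOL4 probes thus gave a large rise, a smaller rise and a signal near background.

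APOL5 did not pass the test. Its spot signal was 79.12 and 69.62 in control cells against 67.83 and 71.73 in PAK1 shRNA cells, over local backgrounds between 39 and 49. The log2 intensities were 6.50 and 6.50 in control cells and 6.35 and 6.58 in PAK1 shRNA cells, so that the PAK1 shRNA arrays lay on either side of the controls. The fold was 0.974 (adjusted p = 0.749 from limma), with a 95% confidence interval of 0.831 to 1.14. The scanner software called the spot well above background on all 4 arrays, but at this signal a change of a transcript at low level may not be detectable. The nearest patterns were those of OR51B6, the unnamed probe A_33_P3349676 and COL4A2, at distances of 0.0289 to 0.0385.

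APOL6, a cytosolic member linked to apoptosis, rose at all 3 probes, by sizes that differed between them. The probe with the highest mean, the second, stood for the gene. Its spot signal was 3800 on the first control array and 667.5 on the second, against 23750 and 36160 on the PAK1 shRNA arrays. The normalized log2 intensities were 11.47 and 9.35 in control cells and 14.78 and 15.31 in PAK1 shRNA cells, so both PAK1 shRNA arrays were above both controls although the controls differed 4.35-fold. The fold was 24.9 (log2 fold change 4.64, SE 0.61, adjusted p = 0.000625 from limma), with a wide 95% confidence interval of 8.94 to 69.1.
Of 25898 probes well above background on all 4 arrays, 3 (0.0116%) differed more between the control arrays than this probe did. The log2 fold change of this probe was 5.70 without the first control array and 3.58 without the second. The cause of the difference between the controls was not tested.
The other 2 APOL6 probes had smaller differences between the controls. At the first probe the spot signal was 217.8 and 243.4 in control cells and 1310 and 1171 in PAK1 shRNA cells, a log2 fold change of 2.80 (SE 0.15). Its normalized level was 0.48 higher on the second control array than on the first on the log2 scale, opposite to the second probe, and 1.7% of probes differed more between the controls. At the third probe it was 453.3 and 341.1 against 1468 and 1579, a log2 fold change of 2.41 (SE 0.08). Both passed the test over the 27517 probes tested (adjusted p = 7.31e-06 and 8.88e-07 from limma). Their mean, a setting chosen after the values were seen, gave APOL6 log2 intensities of 8.01 and 8.21 in control cells and 10.72 and 10.70 in PAK1 shRNA cells, which is 6.08-fold (log2 fold change 2.61, SE 0.09). With the second probe APOL6 had the highest fold of the family, and with the other probes its fold was near that of APOL3. The genes nearest in pattern to the second probe were A_33_P3291871, FCRLA and TRIM22, an interferon-induced ubiquitin ligase, but at distances of 1.05 to 1.42 they were not close.

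The fold changes of APOL3 and APOL4 varied with how the background was handled, and those of APOL1 and APOL2 varied less. When the background model was fitted on all spots, the log2 fold change was 1.56 for APOL3 and 1.78 for APOL4. With an offset of 16 in place of 50 these values were 3.20 and 3.35. With the processed signal of the scanner software, scaled to the 75th percentile of each array, they were 4.43 and 4.30, above the 4.13 of APOL1 and the 4.14 of APOL2. APOL1 stayed between 3.81 and 4.13 and APOL2 between 3.96 and 4.18 over the settings that kept all arrays. The order of the 5 genes by fold is therefore not settled by these arrays, while their direction was the same under every setting run.

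**Figure D2:**
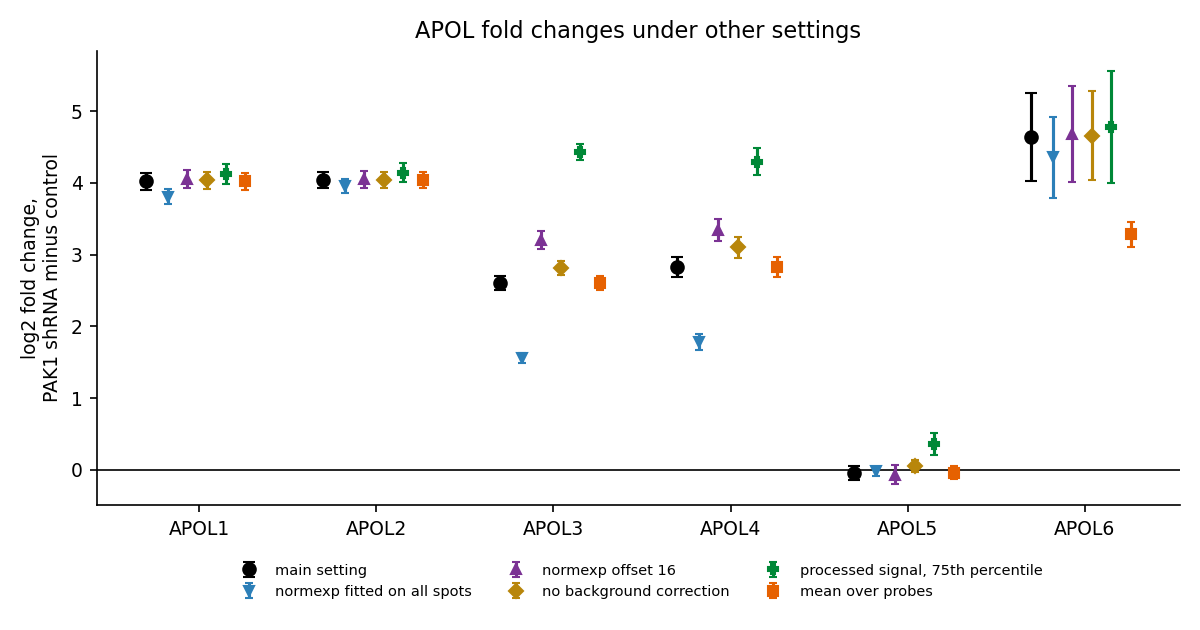
Log2 fold change of each APOL gene, PAK1 shRNA minus control, with the standard error from limma (bars), in the main setting (black) and under 5 alternatives. APOL1 and APOL2 stay near 4, APOL3 and APOL4 range from 1.56 to 4.43, APOL5 lies between -0.07 and 0.37, and APOL6 falls to 3.28 when its 3 probes are averaged.

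The cluster was then set beside its surroundings on chromosome 22. The first probe of the family, that of APOL6, and the last, that of APOL1, are 608 kb apart. Within this span and 500 kb on each side, 17 other gene or transcript names were tested, of which 6 were higher and 4 lower in PAK1 shRNA cells, with a median log2 fold change of 0.06. These counts are near the shares of all genes, 31.0% higher and 31.9% lower, and 1 of the 6 is ENST00000328429, the name described above whose probe is annotated to APOL4. Of the named genes next to and inside the cluster, 3 are given for their position. MYH9, the nonmuscle myosin heavy chain gene next to APOL1, had log2 intensities of 15.11 and 14.99 in control cells and 15.08 and 14.97 in PAK1 shRNA cells (log2 fold change -0.02, adjusted p = 0.829 from limma). RBFOX2, a splicing factor gene that lies between APOL5 and APOL3, had a log2 fold change of 0.50 (adjusted p = 0.00183). The transcript LOC100131802, between RBFOX2 and APOL3, was at -0.09 and did not pass (adjusted p = 0.473).

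**Figure D3:**
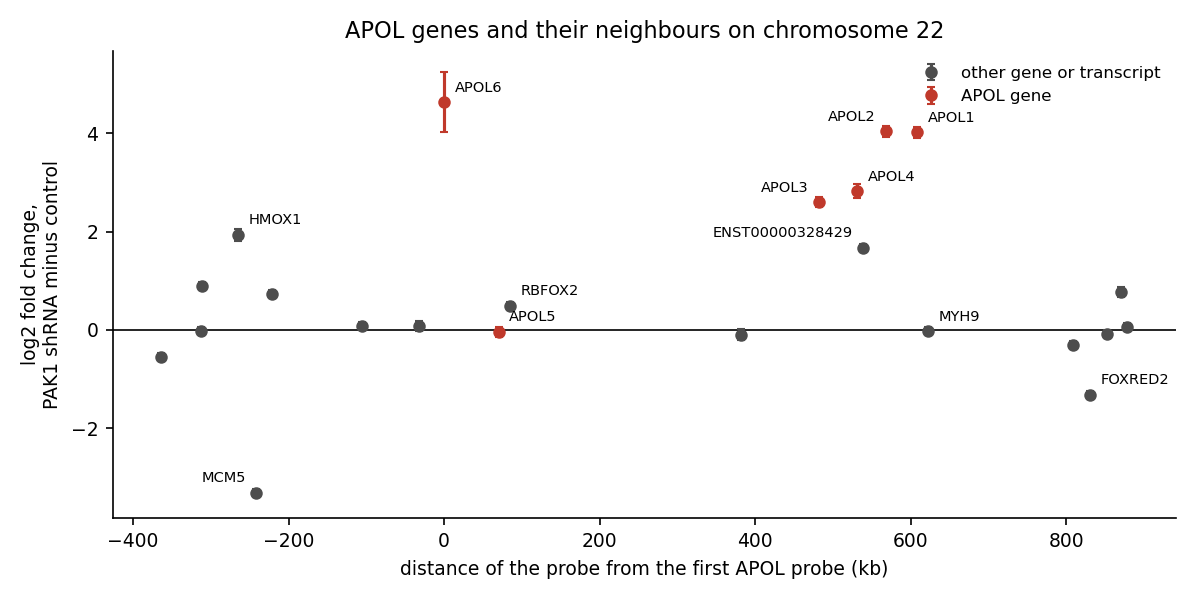
Log2 fold change, PAK1 shRNA minus control, with its standard error from limma, against the distance in kb from the first APOL probe, for APOL genes (red) and other names (grey) in the region. The 5 called APOL genes lie between 2.60 and 4.64, above every other name in the region, of which HMOX1 at 1.94 is the highest and MCM5 at -3.31 the lowest.

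A list of 16 genes around the cluster, some of them beyond that region, had 13 tested members, of which 4 rose and 5 fell (median -0.02), again near the shares of all genes. Its largest rise was that of HMOX1, which encodes heme oxygenase 1, at 1.94, and its largest fall that of MCM5, a subunit of the replicative helicase, at -3.31. APOL5, inside the cluster, had a log2 fold change of -0.04.

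Interferon receptors and the factors they activate were described next, since several APOL genes are known interferon targets. Of 14 genes, 11 rose and 1 fell, with a median log2 fold change of 0.77. Over all genes tested, 31.0% were called higher and 31.9% lower. IFNAR1, a chain of the type I receptor, was the 1 gene that fell (-0.57). The transcription factor genes STAT2, IRF9 and IRF1 rose by 3.72, 3.17 and 2.98 on the log2 scale. The receptor chains and the kinase JAK1 had smaller values, between -0.57 and 0.82, while JAK2 rose by 3.22.

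Genes of proteins known to work with APOL members were also listed. Of 7 such genes 6 were tested, and 1 rose and 3 fell, with a median of -0.17. Beside the 31.0% of all genes called higher and 31.9% called lower, counts from 6 genes say little about the list. GBP1, a GTPase that coats bacteria and is known to act with APOL3, rose from 9.36 and 9.27 to 13.68 and 13.93 (log2 fold change 4.49, SE 0.10). HP, the gene of haptoglobin, fell most, from 9.38 and 9.54 to 7.78 and 7.61 (log2 fold change -1.77), and HPR, whose product travels with APOL1 in the blood particle, was at -0.35 (adjusted p = 0.00821 from limma). HP and HPR are near-identical genes whose probes may share signal. NCS1, a calcium sensor that APOL3 is known to bind, was at -1.11, and VAMP8, a fusion protein reported to bind APOL1, was at 0.01 and did not pass. With cyclic loess in place of quantile normalization, 3 genes of this list were called higher.
Of 10 antimicrobial effectors 9 were tested, and 8 rose and none fell at the threshold, with a median of 3.48. The same threshold called 31.0% of all genes higher and 31.9% lower. The largest rise was that of GBP5, at 5.41, from 6.45 and 6.54 in control cells to 11.73 and 12.08 in PAK1 shRNA cells. These control values were as low as those of APOL3, whose fold varied with how the background was handled. Whether the fold of GBP5 varies in the same way was not tested. GBP1 is a member of this list too, and the 5 GBP genes had log2 fold changes from 3.48 to 5.41. BPI, a secreted protein of neutrophils that permeabilizes bacteria, was near background and did not pass (-0.11, adjusted p = 0.348).

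A list of other apolipoprotein genes, not limited to the classical ones of blood, was set beside the family. Of 18 genes 14 were tested, and 5 rose, 3 fell and 6 did not pass, with a median log2 fold change of 0.06, near the shares of all genes called (31.0% higher and 31.9% lower). Of the 5, APOC3 was well above background on 0 control arrays and APOA2 on 1, so they were tested only through PAK1 shRNA cells, and 3 genes were called higher when all arrays had to be well above background. APOD rose most, from 6.35 and 6.47 to 8.52 and 8.78 (log2 fold change 2.24, SE 0.11). Its control values too were as low as those of APOL3, so the size of its fold may vary with how the background is handled. APOC1 fell by 2.24, from 10.47 and 10.32 to 8.08 and 8.24. APOE, the most studied of them, was at 0.57 (adjusted p = 0.00809 from limma), and APOA1, which carries APOL1 in blood, was not well above background on both arrays of either group.

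**Figure D4:**
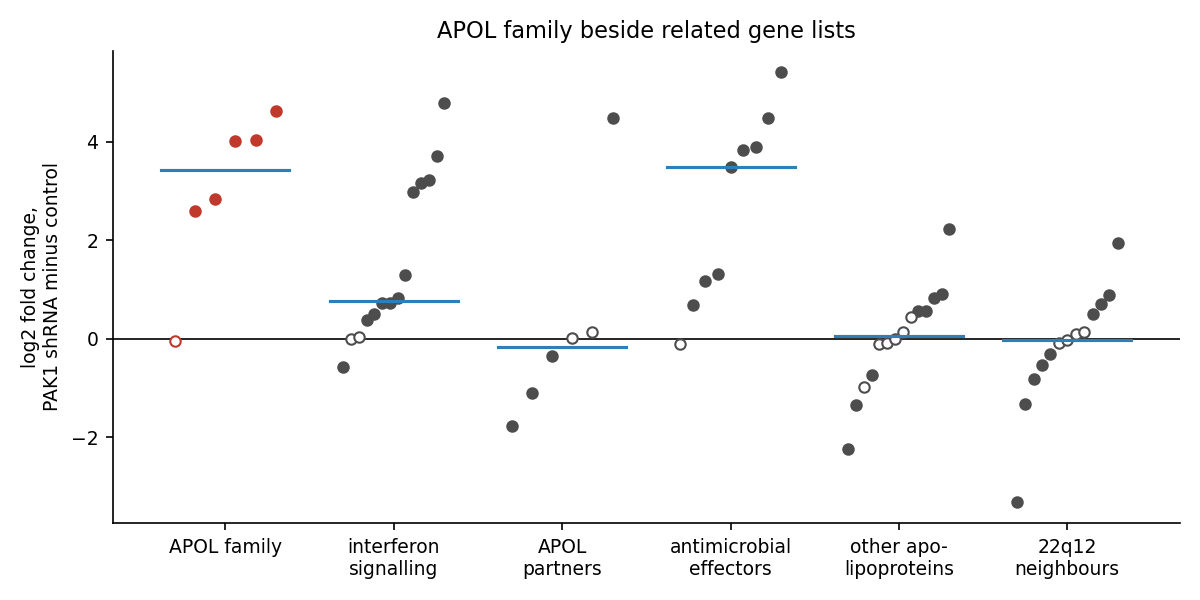
Log2 fold change, PAK1 shRNA minus control, of each tested gene of the APOL family (red) and of 5 gene lists (grey). Filled points passed an adjusted p under 0.05 in limma, open points did not, and blue lines are medians, which run from 3.43 for the APOL family and 3.48 for antimicrobial effectors down to -0.17 for APOL partners.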

How the data were processed

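RNA of 4 samples was hybridized in 1 colour (Cy3) to Agilent whole genome arrays. The authors deposited spot intensities from Agilent Feature Extraction 9.5, with hg19 probe coordinates, and a table of normalized log2 values, used as an alternative. The methods name normexp, quantile normalization and limma. The column medians of that table were 9.40 to 9.42 on the log2 scale, and each column correlated at 0.9993 to 0.9996 with its own array. The 5 called APOL genes had the same direction in it, while APOL5, near 0, had the opposite sign. The normexp offset of that table is unknown.

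Background correction here used normexp (offset 50), fitted without spots of flagged local background. With all spots the model put the mean background at -666 and -740 for control cells and -10.7 and -10.2 for PAK1 shRNA cells, and without flagged spots between -12.1 and -9.19. After quantile normalization, flagged spots were dropped and spots of a probe averaged. A probe was tested if both arrays of either group were called well above background, and each gene was read from its brightest probe. The test was limma (version 3.58.1, R 4.3.3; lmFit, then eBayes), and p-values were adjusted by Benjamini-Hochberg over 22001 genes and a threshold of 0.05. In data simulated for this comparison over 22001 genes, 200 were shifted, far fewer than were called in the real data. There the test recovered 97% of the genes shifted by a log2 value of 1 and 23% at 0.5, with 12 unchanged genes called. The adjustment is stricter when fewer genes change, so these percentages do not give the sensitivity in the real data. All arrays lay on 1 slide, so it could not be a block. The members and gene lists were chosen with earlier results of these data known. Named genes are the members, PAK1, the largest called rise and fall of each list and the 3 nearest patterns of each member; 1 gene that this rule names is not reported here, and other genes were named after their values were seen. Alternatives covered background, signal, normalization, filter, flags, probe rule, values, the test and its threshold, a replicate block, and leaving out each array.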

Additional observations from a re-analysis of the deposited data

How the results depend on the processing

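The 5 called APOL genes kept their direction under every alternative run and stayed past the threshold in each, except APOL6 under the unpaired t-test, which the study names in its general statistics and not for the arrays, where its log2 fold change of 4.64 no longer passed (adjusted p = 0.0924). APOL5, near 0 and never past the threshold, turned to 0.0543 without background correction, 0.37 with the processed signal, 0.27 under median centring, 0.0568 in the authors' processed values and 0.0765 without the first PAK1 shRNA array (range without an array -0.15 to 0.0765), for causes not tested. Over all genes the median shifted to 0.12 with the processed signal and 0.14 under median centring. With 1 array left out, and the remaining array of that group taken to have the spread of the other group, the log2 fold change ranged from 3.90 to 4.14 for APOL1, 3.93 to 4.15 for APOL2, 2.50 to 2.71 for APOL3, 2.61 to 3.05 for APOL4, 3.58 to 5.70 for APOL6 and -0.79 to -0.71 for PAK1. The t-test called 12116 genes unadjusted and 9134 after adjustment, 4370 of the latter higher. At 2-fold and more 1947 genes were called higher and 1971 lower, with all 5 APOL genes among them. With the replicate number as a block, 5 APOL genes were called higher, as without it; arrays with the same number shared no deviation from their group means (r = 0.0105 over 34089 probes), which leaves only a shared number. Of 190 counts of the gene lists under alternatives, 9 moved by more than 1.5 times. Signal over background limits APOL3, APOL4 and APOL5, whose control spots were close to the local background.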

Other observations

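APOLD1, a gene on chromosome 12 that carries an APOL-like domain and is known from vascular endothelium, is no member of the family and was picked out after its values were seen. It moved against the called APOL genes. At its brighter probe, at chr12:12944179-12944238 (hg19), the spot signal was 2717 and 1910 in control cells and 203.8 and 211.7 in PAK1 shRNA cells, a log2 fold change of -2.91 (standard error 0.09, adjusted p = 7.63e-07 from limma over all probes). At its other probe the signal was 711.8 and 642.9 against 302 and 263.4, a smaller log2 fold change of -0.74 (adjusted p = 0.000664 from limma).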
